A study of Mus musculus with 2 samples.

Results

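The matricellular genes described here are 10 rows of 1 expression table of sorted mouse heart cells: Thbs4, Comp, Postn, Spp1, Cilp, Thbs1, Thbs2, Sparc, Fn1 and Ctgf, out of 15247 genes. They were picked by name, with their levels, cell shares and joint detection in these cells already known, so all of those values are a description and carry no test. All 10 rows were found, and in both comparisons that involve fibroblasts all 10 passed the filter on low values, a mean level of 10 CPM (UMIs per 1000000 UMIs of a class) over the groups compared. The cells came from hearts of aged C57BL/6 mice, 20 to 22 months old, of the p16-FDR strain. Every animal carried that construct, which encodes a FLP recombinase and a diphtheria toxin receptor fused to the red protein mCherry. The labels used here do not say which promoter drives it or how many animals were pooled. Cells positive for mCherry were isolated by flow cytometry and counted by droplet 3′ single-cell sequencing, in which each captured RNA molecule gives 1 unique molecular identifier (UMI). There are 2 labelled samples, both of 1 group, and no mCherry-negative, younger or diseased sample is used here.

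Cell names divide the 1426 cells into the libraries Heart1, with 266 cells and 3304045 UMIs, and Heart2, with 1160 cells and 10632723 UMIs, which share 0 cell barcodes. Nothing in the names says which labelled sample each library is, or that the libraries come from separate animals. Library, day of work and animal cannot be told apart. A cell was called a fibroblast when it held UMIs of at least 4 of 8 fibroblast genes (Pdgfra, Dcn, Lum, Dpt, Col1a1, Col1a2, Tcf21, Pcolce) and of at most 1 of 8 macrophage genes (Csf1r, C1qa, C1qc, Adgre1, Fcgr1, Cd68, Tyrobp, Lyz2), and a macrophage under the reverse rule. Heart1 held 203 fibroblasts (76.3% of its cells) with a median of 11841 UMIs and 37 macrophages with a median of 8133. Heart2 held 934 fibroblasts (80.5%) with a median of 8774.5 UMIs and 197 macrophages with a median of 9488. T cell markers had 0 UMIs in both gated classes, and the summed endothelial markers stayed at or below 11.5 CPM in them. Cdkn2a, the gene that encodes p16 and also p19Arf, was found in 34.5% of Heart1 fibroblasts and 0.749% of Heart2 fibroblasts, against 43.2% of Heart1 macrophages and 26.9% of Heart2 macrophages.

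Matricellular proteins are secreted into the extracellular matrix, where they act on cells through integrins, CD47, CD36 and other receptors and bind growth factors, rather than serving mainly as scaffold. In adult heart most of them are low at rest and are made by fibroblasts during scar formation and pressure overload, with TGF-beta and the mechanosensitive YAP and TEAD pathway among the known inducers. Thrombospondins 1 and 2 (Thbs1, Thbs2) are trimers, while thrombospondin 4 (Thbs4) and cartilage oligomeric matrix protein (Comp, thrombospondin 5) are pentamers.

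Promoter sequences are shown for 5 of the genes, because the pairs of Thbs4 with Cilp, Postn and Spp1 were among those found together in fibroblasts at least 1.5 times the expected number, by the measure described with the pairs, and no pair with Thbs2 was. RefSeq promoter entries (GRCm38.p6) were matched for 6 of the 10 genes, with 2 start sites for Postn and for Spp1. Each entry runs from 250 bases before the start to 50 after it and is printed 5′ to 3′ on the gene's strand. Capitals mark matches to 6 motifs, searched on both strands. The TATA box was searched as TATAAA and the CCAAT box by the letters of its name. The GC box was searched as GGGCGG and the AP-1 site as TGANTCA. The SMAD element was searched as CAGACA and the TEAD element as CATTCC.
Thbs4 (chr13:92794769-92795068, minus strand): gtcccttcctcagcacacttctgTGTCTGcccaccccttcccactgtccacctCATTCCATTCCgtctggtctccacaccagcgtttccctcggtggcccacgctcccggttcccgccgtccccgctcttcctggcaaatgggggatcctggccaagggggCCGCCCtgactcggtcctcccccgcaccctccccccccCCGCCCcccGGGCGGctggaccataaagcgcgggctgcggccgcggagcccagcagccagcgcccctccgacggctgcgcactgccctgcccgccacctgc
Cilp (chr9:65264930-65265229, plus strand): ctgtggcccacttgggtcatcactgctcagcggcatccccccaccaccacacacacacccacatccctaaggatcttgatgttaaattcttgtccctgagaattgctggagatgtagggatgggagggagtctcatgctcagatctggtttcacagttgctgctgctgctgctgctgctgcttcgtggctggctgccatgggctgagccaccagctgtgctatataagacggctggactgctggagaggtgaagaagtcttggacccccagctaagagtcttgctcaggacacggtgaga
Postn second start (chr3:54360857-54361156, plus strand): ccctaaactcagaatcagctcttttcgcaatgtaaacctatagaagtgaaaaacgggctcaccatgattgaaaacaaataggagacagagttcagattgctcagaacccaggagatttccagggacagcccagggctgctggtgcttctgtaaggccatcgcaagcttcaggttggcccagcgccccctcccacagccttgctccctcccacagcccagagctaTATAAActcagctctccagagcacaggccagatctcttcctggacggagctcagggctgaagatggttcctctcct
Spp1 first start (chr5:104434861-104435160, plus strand): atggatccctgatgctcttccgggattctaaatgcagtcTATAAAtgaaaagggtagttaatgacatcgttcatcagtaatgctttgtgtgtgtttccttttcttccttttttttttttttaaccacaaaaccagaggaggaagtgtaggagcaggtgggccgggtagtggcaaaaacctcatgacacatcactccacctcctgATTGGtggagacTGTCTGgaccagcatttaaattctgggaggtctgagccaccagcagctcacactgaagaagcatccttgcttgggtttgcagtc
Thbs2 (chr17:14694213-14694512, minus strand): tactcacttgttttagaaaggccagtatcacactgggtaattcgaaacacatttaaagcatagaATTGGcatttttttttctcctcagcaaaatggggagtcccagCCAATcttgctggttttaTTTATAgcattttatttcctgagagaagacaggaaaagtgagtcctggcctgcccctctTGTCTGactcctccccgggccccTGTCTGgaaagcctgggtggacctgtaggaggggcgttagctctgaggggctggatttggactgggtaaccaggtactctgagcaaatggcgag
The Thbs4 promoter held 3 GC boxes, 1 SMAD match and 2 TEAD matches that overlap each other, and its GC content was 72.0%, against a median of 52.7% over all 32851 promoter entries. The Cilp window held none of the searched letters, so no motif was shared by all 5 windows. Only the stated letters were searched, and other forms of a motif, such as of the TATA box, were not counted. A GC box was present in 35.7% of all entries, a CCAAT box in 37.4%, a SMAD element in 21.0%, a TEAD element in 14.7%, a TATA box in 13.6% and an AP-1 site in 7.81%. In the GENCODE annotation of the same build, Thbs4 spans chr13:92751590-92794818 and Thbs2 spans chr17:14665500-14694235, both on the minus strand. Spp1, Thbs1, Fn1 and Ctgf (annotated as Ccn2) each overlap 1 other annotated gene. Spp1 and Gm42793 lie on the same strand, so their reads could be confused.

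Fibroblasts held most UMIs of each of the 10 genes, from 84.0% for Spp1 in Heart1 to 100% for Thbs4 in Heart2. Over all genes they held 2669000 of 3304045 UMIs in Heart1 and 8341964 of 10632723 in Heart2. Of the 10, 9 were at least 2-fold higher in fibroblasts than in macrophages of both libraries and 0 were lower. The same call was made for 14.9% of the 8786 genes above the filter in the higher direction and for 10.9% in the lower direction. The genes were chosen with this contrast in view, so nothing is read from their count. Their median log2 difference (with 5 CPM added to each level) was 6.68 in Heart1 and 4.72 in Heart2, and the medians of all genes were 0.13 and 0.19. With the genes at 0 in macrophages set to the bound that 3 UMIs allow, the median ratio was 77.9 in Heart1 and 98.9 in Heart2. Levels below are in CPM, from the summed UMIs of a class. They are counts of 3′ tags, which do not scale with gene length, and every interval is exact at 95% and covers counting error only.

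**Figure D1:**
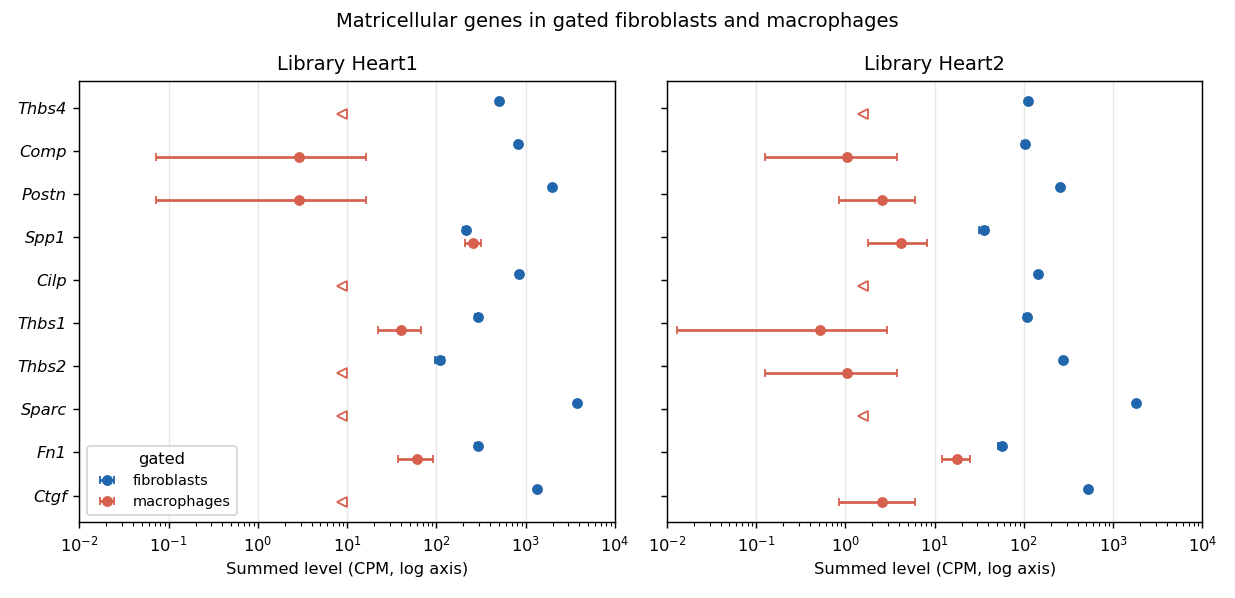
Level of each of the 10 genes (CPM, log axis) in gated fibroblasts (blue) and macrophages (red) of each library, with exact 95% Poisson intervals. Open triangles mark genes with 0 UMIs, drawn at the level that 3 UMIs would give (8.64 in Heart1 macrophages, 1.55 in Heart2 macrophages). Fibroblasts lie above macrophages for every gene except Spp1 in Heart1.

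Among the thrombospondins, Thbs4, known for a role in stress adaptation of the heart, had 499.8 CPM (95% interval 473 to 527) in Heart1 fibroblasts and 111.2 (104 to 119) in Heart2 fibroblasts. In macrophages it had 0 UMIs in both libraries. By counting error alone, this makes fibroblasts at least 57.8-fold higher in Heart1 and at least 71.6-fold higher in Heart2. The bound takes UMIs as independent and does not cover UMIs that lie together in 1 cell. These levels came from 28 of 203 Heart1 fibroblasts and 16 of 934 Heart2 fibroblasts, so Thbs4 marked a small minority of cells at high level. Without the highest 1% of cells its log2 difference from macrophages was 6.02 in Heart1 and 0.26 in Heart2, which is no longer 2-fold. Comp, a cartilage and tendon matrix protein that binds collagen, had 818 CPM in Heart1 fibroblasts and 102.9 in Heart2 fibroblasts. Heart1 macrophages held 1 Comp UMI and Heart2 macrophages held 2. The share of fibroblasts with a Comp UMI was 39.4% in Heart1 (Clopper-Pearson interval 32.6 to 46.5) and 6.64% in Heart2 (5.13 to 8.43).

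Thbs1, an activator of latent TGF-beta, had 289.6 CPM in Heart1 fibroblasts and 107.5 in Heart2 fibroblasts, with shares of 41.9% and 25.5% of cells. Its 14 UMIs in Heart1 macrophages all came from 1 cell, and Heart2 macrophages held 1 UMI. Thbs2, which in mice is known to limit matrix breakdown and vessel growth, ran the other way between the libraries. It had 108.7 CPM in Heart1 fibroblasts (55.2% of cells) and 272.1 in Heart2 fibroblasts (74.6% of cells). Heart1 macrophages held 0 Thbs2 UMIs and Heart2 macrophages held 2.

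Postn encodes periostin, a fibroblast protein used to mark activated fibroblasts and myofibroblasts in injured heart. Its level was 1966 CPM (1913 to 2019) in Heart1 fibroblasts and 255 (244 to 266) in Heart2 fibroblasts, and its share of cells was 60.1% and 12.6%. Macrophages held 1 Postn UMI in Heart1 and 5 in Heart2. Cilp, cartilage intermediate layer protein, binds TGF-beta 1 and is induced in cardiac fibrosis. It reached 846 CPM in Heart1 fibroblasts and 145 in Heart2 fibroblasts, with 0 UMIs in macrophages of either library. By counting error alone, fibroblasts were thus at least 97.9-fold higher for Cilp in Heart1 and at least 93.5-fold higher in Heart2.

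Sparc, a collagen-binding glycoprotein that takes part in collagen fibril assembly, was the most general of the 10. All 203 Heart1 fibroblasts and 932 of 934 Heart2 fibroblasts held a Sparc UMI, at 3728 and 1814 CPM, and no macrophage of either library held one. Ctgf (Ccn2), a secreted protein and textbook target of YAP and TGF-beta, was in 82.8% of Heart1 fibroblasts (1337 CPM) and 53.9% of Heart2 fibroblasts (519.5 CPM). Macrophages held 0 Ctgf UMIs in Heart1 and 5 in Heart2.

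Fn1, fibronectin, the matrix glycoprotein to which integrins attach, had the smallest difference between the classes of the 9 genes called. It had 291.9 CPM in Heart1 fibroblasts and 56.7 in Heart2 fibroblasts, against 60.5 in Heart1 macrophages and 17.6 in Heart2 macrophages. The ratio of fibroblasts over macrophages was 4.82 (3.13 to 7.84) in Heart1 and 3.22 (2.27 to 4.71) in Heart2. As a yardstick for free RNA, 4 fibroblast matrix genes outside the gate (Col3a1, Mgp, Bgn and Igfbp7) reached at most 0.322% of their fibroblast level in macrophages. Fn1 in macrophages stood at 20.7% of its fibroblast level in Heart1 and 31.0% in Heart2, with UMIs in 7 of 37 and 8 of 197 macrophages. In Heart1, 10 of the 21 macrophage Fn1 UMIs lay in 1 cell. The part of RNA free in the droplets in these values was not tested.

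Spp1 encodes osteopontin, a secreted phosphoprotein that binds integrins and CD44 and is made by both fibroblasts and macrophages in injured heart. Its level was 213.9 CPM (197 to 232) in Heart1 fibroblasts, against 259 (209 to 319) in Heart1 macrophages, and 35.2 (31.3 to 39.5) in Heart2 fibroblasts, against 4.14 (1.79 to 8.16) in Heart2 macrophages. The order of the classes therefore differed between the libraries, and within Heart1 the 2 intervals overlap. Few cells set these values. In Heart1 macrophages 74 of the 90 UMIs lay in 1 cell, which also held 23 UMIs of Gpnmb and 500 of Lgals3, genes known from lipid-handling macrophages. In Heart2 fibroblasts 277 of the 294 UMIs lay in 1 cell. That cell held all 10 genes and also had the most Thbs4 (390 UMIs) and Comp (141 UMIs) of any Heart2 fibroblast. It held a UMI of 1 macrophage gene, so a gate that allows none leaves it out, and the log2 difference of fibroblasts over macrophages in Heart2 is then -0.22 in place of 2.14. With the highest 1% of cells of each class left out (at least 1 cell), it was 0.74 in Heart1 and -0.61 in Heart2. That step leaves out all 6 Heart2 fibroblasts with a Spp1 UMI.

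Within Heart1 fibroblasts the order of levels ran Sparc, Postn, Ctgf, Cilp, Comp, Thbs4, Fn1, Thbs1, Spp1 and Thbs2. The intervals of Cilp and Comp overlapped there, as did those of Fn1 and Thbs1. Within Heart2 fibroblasts it ran Sparc, Ctgf, Thbs2, Postn, Cilp, Thbs4, Thbs1, Comp, Fn1 and Spp1. The intervals of Thbs2 and Postn overlapped there, as did those of Thbs4, Thbs1 and Comp. Sparc led both orders, while Thbs2 stood last in Heart1 and in the upper part of the order in Heart2.

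Most UMIs of the rarer genes came from a small number of cells. The 20 Heart1 fibroblasts with most Thbs4 (the highest 10%) held 99.3% of its UMIs, and in Heart2 all its UMIs lay in 16 cells. For Sparc the highest 10% of fibroblasts held 49.6% of UMIs in Heart1 and 31.1% in Heart2. The single highest cell held 19.4% of Thbs4 UMIs in Heart1 and 42.0% in Heart2, and 43.4% and 94.2% of Spp1 UMIs. Thbs2 was spread most evenly at the top, with 4.48% and 0.969% in its highest cell.

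**Figure D2:**
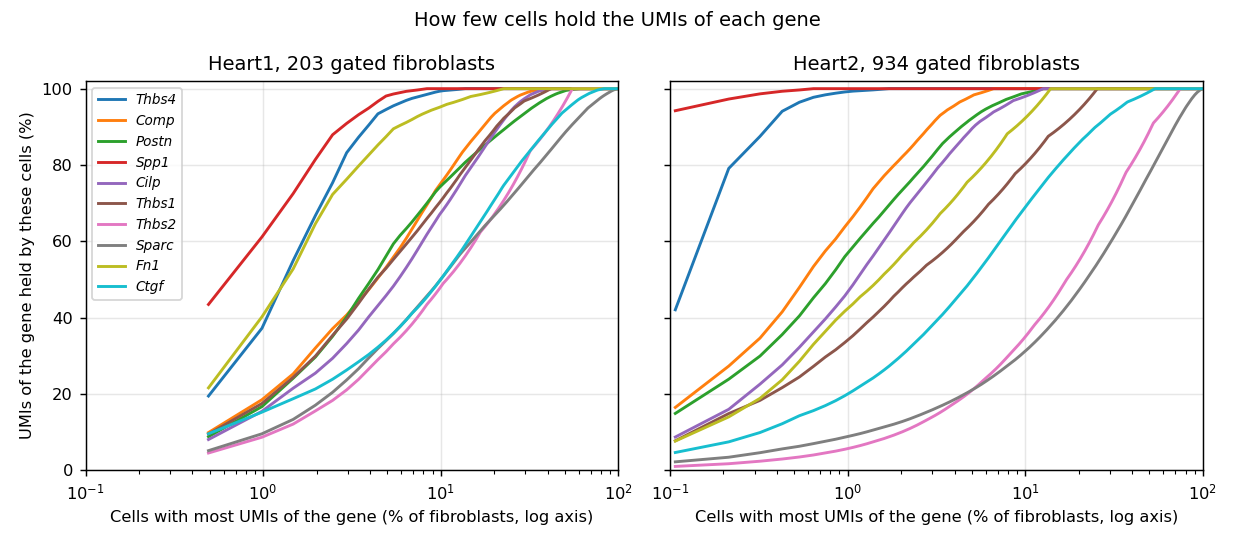
Cumulative percent of the UMIs of each gene (vertical axis) held by the fibroblasts with most of it (horizontal axis, percent of fibroblasts, log scale), per library. Spp1 climbs first in both libraries, followed by Thbs4 and, in Heart1, Fn1, so few cells hold them, while Thbs2 and Sparc start lowest.

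A median Heart1 fibroblast held UMIs of 4 of the 10 genes (range 1 to 10) and a median Heart2 fibroblast of 3 (range 0 to 10). Macrophages had a median of 0 in both libraries, with a maximum of 3 in Heart1 and 2 in Heart2. With each cell thinned to 3000 UMIs, which every gated cell exceeded, the mean number of the 10 genes was 3.55 in Heart1 fibroblasts and 2.28 in Heart2 fibroblasts. The unthinned means were 4.67 and 3.02. At least 8 of the 10 genes were found in 22 Heart1 fibroblasts (10.8%) and 12 Heart2 fibroblasts (1.28%). Those cells held 97.1% of Thbs4 UMIs in Heart1 and 96.9% in Heart2, and 98.2% and 99.3% of Spp1 UMIs. They held 59.8% and 34.6% of Postn UMIs, 78.3% and 24.1% of Fn1 UMIs, and 11.7% and 0.925% of Thbs2 UMIs. The cells were picked for holding these same genes, so large shares of the rarer genes follow in part from that choice. The Thbs2 shares lay near the 10.8% and 1.28% of fibroblasts that these cells made up. Their median depth was 18860.5 UMIs in Heart1 and 14015.5 in Heart2, above the median of all fibroblasts. The part of depth in their number was not tested beyond the thinning. In the cell with the largest share, the 10 genes together made up 7.97% of all UMIs in Heart1 and 9.47% in Heart2, against 1.01% and 0.342% over all fibroblasts.

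**Figure D3:**
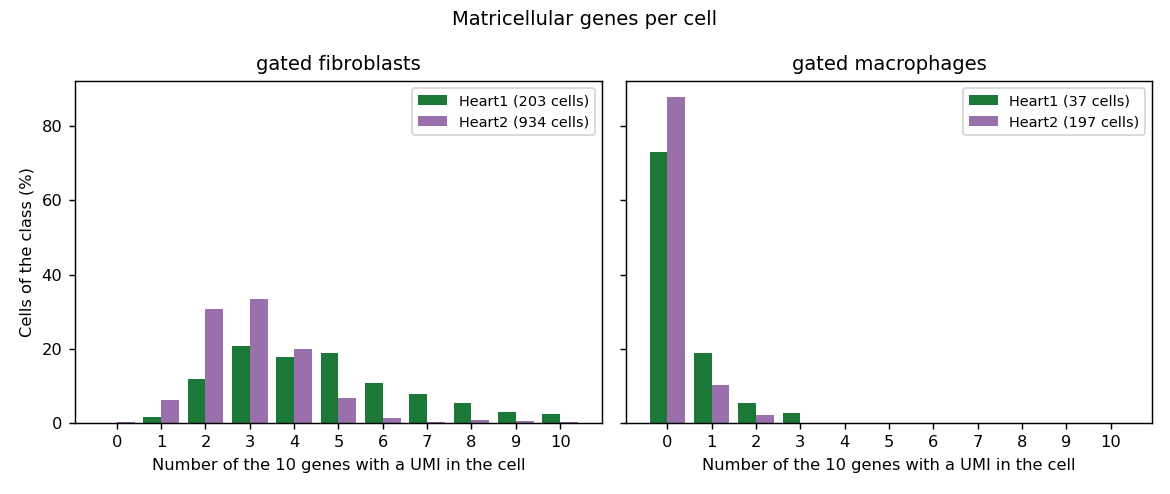
Percent of cells (vertical axis) by how many of the 10 genes had a UMI in the cell (horizontal axis), for gated fibroblasts and macrophages of Heart1 (green) and Heart2 (purple). Heart1 fibroblasts reach further to the right (median 4, against 3 in Heart2), and macrophages stay at 0 to 3 genes.

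Joint detection was described as the number of cells with UMIs of both genes over the number expected from their shares, at 3000 UMIs per cell. Of the 45 pairs, 13 were found together at least 1.5 times the expected number in both libraries, that is 28.9%. Among 95420 pairs of 1 of the 10 genes with another gene found in at least 5% of the fibroblasts of each library, 1.13% met that rule. That background leaves out genes as rare as Spp1 and Thbs4 were in Heart2. Thbs4 and Spp1 alone reached 1.5 with 10.2% and 16.5% of other genes in Heart1, and with 16.5% and 21.6% in Heart2. A ratio cannot exceed 1 divided by the larger of the shares. Pairs with Sparc or Ctgf, in the 45 and in the background, could therefore not reach 1.5 in Heart1. At 3000 UMIs, Sparc was in 96.4% and Ctgf in 67.0% of Heart1 fibroblasts. Their absence from the 13 thus says nothing about them. The rule by which the genes were chosen names joint detection, so nothing is read from the 13. Of these pairs, 9 were among Thbs4, Comp, Postn, Spp1 and Cilp, the remaining pair of those 5 being Postn and Cilp, and the other 4 paired Thbs4 or Spp1 with Fn1 or Thbs1.

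Thbs4 and Spp1 were the pair most often found together relative to expectation. Both were in 13 of the 203 Heart1 fibroblasts and 5 of the 934 Heart2 fibroblasts, with thinned ratios of 7.23 and 77.5. The Heart2 ratio rests on those 5 cells. Thbs4 and Cilp shared all 28 Thbs4 cells in Heart1 and 15 of 16 in Heart2, with ratios of 2.92 and 10.1. Thbs4 and Comp had ratios of 2.60 in Heart1 and 15.9 in Heart2, and Comp and Postn had 1.54 and 5.76. No ratio can exceed 1 divided by the larger share, so the lower shares of Heart2 leave room for larger ratios and the 2 libraries' ratios are not set against each other.

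Leaving out Sparc, which nearly every fibroblast held, the 8 pairs of Thbs2 had ratios of 0.667 to 0.909 in Heart1 and 0.534 to 1.02 in Heart2, below 1 for 8 of them in Heart1 and 7 in Heart2. Thbs2 with Comp had 0.683 in Heart1 and 0.534 in Heart2. Without thinning, some of these ratios lay above 1, among them 1.17 for Thbs2 with Thbs4 in Heart1, where thinned it was 0.806.

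With Cdkn2a, given for Heart1 because Heart2 held only 7 fibroblasts with a Cdkn2a UMI, the thinned ratios were 0.546 for Cilp, 0.629 for Thbs4, 0.958 for Sparc, 0.978 for Comp, 1.03 for Thbs2, 1.07 for Ctgf, 1.17 for Spp1, 1.30 for Thbs1, 1.30 for Fn1 and 1.39 for Postn. Without thinning, Thbs4 had a ratio of 1.24 and Cilp of 0.910. Levels did not follow the thinned ratios: Thbs4 had 834 CPM in the 70 Heart1 fibroblasts with a Cdkn2a UMI, against 306 CPM in the 133 without one, and was found in 17.1% and 12.0% of them. Cilp had 1107 CPM with and 695 CPM without a Cdkn2a UMI, and was found in 38.6% and 44.4%. Since ratio, share and level differ in direction for these genes, no direction is read for them.

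**Figure D4:**
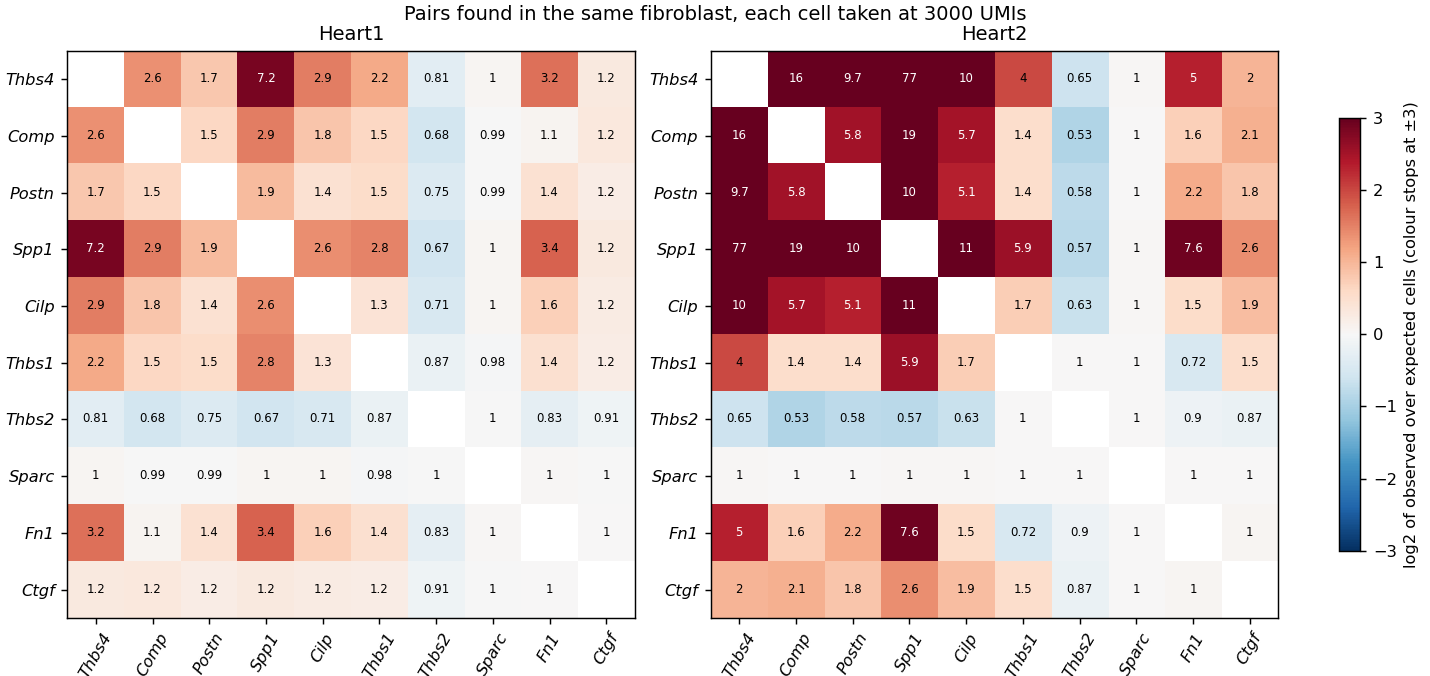
Observed over expected number of fibroblasts holding both genes of a pair, at 3000 UMIs per cell, for Heart1 (left) and Heart2 (right). Numbers are ratios and colour is their log2, red above 1 and blue below, and the Thbs4, Comp, Postn, Spp1 and Cilp block is red in both libraries while the Thbs2 row is mostly blue.

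By the same kind of description across single fibroblasts, the non-member gene most like Thbs4 was Rflnb, a filamin-binding regulator known from cartilage, with a Pearson correlation of deposited values of 0.74 in Heart1 and 0.49 in Heart2. Ltbp2, a microfibril-associated protein, followed at 0.59 and 0.58. Ltbp2 stood among the first 3 for Thbs4, Comp, Postn, Spp1 and Cilp. Comp was most like Prg4, the joint lubricant lubricin (0.55 in Heart1, 0.53 in Heart2). For Ctgf the first 3 were Meox1 (0.42 in Heart1, 0.38 in Heart2), Pmepa1 and Cyr61, and Meox1 was also the third for Postn (0.56 in Heart1, 0.38 in Heart2). The points are cells of 1 library each that share depth, and over 9542 genes the median correlation with Thbs4 was 0.00.

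In fibroblasts, 9 of the 10 genes were at least 2-fold higher in Heart1 than in Heart2 and Thbs2 was at least 2-fold lower. Over the 8599 genes above the filter, 2.41% were called higher and 1.52% lower. The choice of the genes used this contrast, and it sets 1 library against 1, so it has no replicate check. The log2 differences of level were 2.93 for Comp, 2.92 for Postn, 2.50 for Cilp, 2.44 for Spp1, 2.27 for Fn1 and 2.12 for Thbs4. They were smaller for Thbs1 (1.39), Ctgf (1.36) and Sparc (1.04), and -1.29 for Thbs2. Sparc lay just past the threshold of 2-fold. The median was 2.19, against -0.10 for all genes, whose 1st and 99th percentiles were -1.11 and 1.75. As ratios with counting intervals, Comp was 7.96 (7.35 to 8.62), Postn 7.71 (7.33 to 8.11) and Thbs2 0.399 (0.352 to 0.451).

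Thinning kept the direction of the difference in share for the 4 genes given next. At 3000 UMIs, Postn would be found in 49.9% of Heart1 and 9.22% of Heart2 fibroblasts, Comp in 30.2% and 4.92%, and Thbs4 in 9.49% and 1.14%. Thbs2 would be found in 25.1% and 48.8%, against 55.2% and 74.6% unthinned. Sparc would be found in 96.4% and 96.5%. Nearly every fibroblast held it in both libraries, so its share left little room for a difference beside its higher level in Heart1. Without the fibroblasts that held a Thbs4 UMI, the log2 differences were 3.14 for Comp, 2.51 for Postn and 2.07 for Cilp, but 0.74 for Fn1 and 0.78 for Sparc, below 2-fold. Then 6 of the remaining 9 genes were called higher. Without the fibroblasts that held a Cdkn2a UMI, 8 of the 10 were called higher, with Ctgf at 0.97.

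In macrophages, Spp1, Thbs1 and Fn1 were the members with a mean of at least 10 CPM over the libraries. Their log2 differences of Heart1 over Heart2 were 4.85, 3.04 and 1.54, all past 2-fold. Of 7759 genes, 3.85% were called higher and 4.14% lower. Spp1 (259 CPM in Heart1, 4.14 in Heart2) and Thbs1 (40.3 and 0.518) passed the filter only through Heart1. The filter thus nearly fixed their direction, and nothing is read from their calls. The Thbs1 value rests on 1 cell and the Spp1 value mostly on 1 cell.

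Values of other gene groups moved with this library difference in fibroblasts, and their part in it was not tested. All 10 early response genes, which cells switch on within minutes of stress or tissue dissociation, were called higher in Heart1, with a median log2 difference of 2.19. Fos had 885 CPM in Heart1 fibroblasts and 147 in Heart2 fibroblasts, and Junb had 1410 and 313. The 3 smooth muscle genes with a row (Acta2, Tagln, Des), of which activated fibroblasts also use Acta2 and Tagln, summed to 229 in Heart1 and 42.6 in Heart2. The 5 cardiomyocyte genes summed to 46.1 and 18.2, but only Tnnt2 (29.97 CPM in Heart1 and 6.23 in Heart2) was above the filter. Of the others, all low, Myl2 and Actc1 were higher in Heart1, while Myh6 (1.87 and 2.52) and Tnni3 (2.62 and 3.24) were lower. The cardiomyocyte sum therefore rests mostly on 1 gene. Cdkn2a itself had 82.4 CPM in Heart1 fibroblasts and 2.16 in Heart2 fibroblasts. At least 3 of 5 pericyte markers (Kcnj8, Abcc9, Rgs5, Pdgfrb, Higd1b) were found in 24 of the 203 Heart1 fibroblasts and 36 of the 934 Heart2 fibroblasts. These cells held 228 of the 2184 Comp UMIs of Heart1 fibroblasts, a part near their share of cells, and 7 of 858 in Heart2. For Thbs2 the numbers ran the other way, with 18 of 290 UMIs in Heart1 and 136 of 2270 in Heart2. Rgs5 had 26.6 CPM in Heart1 and 0.719 in Heart2 and Higd1b was at 0 and 1.32, while the 5 markers summed to 222 in Heart1 and 223 in Heart2. The median share of mitochondrial UMIs was 3.38% in Heart1 fibroblasts and 5.18% in Heart2 fibroblasts.

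**Figure D5:**
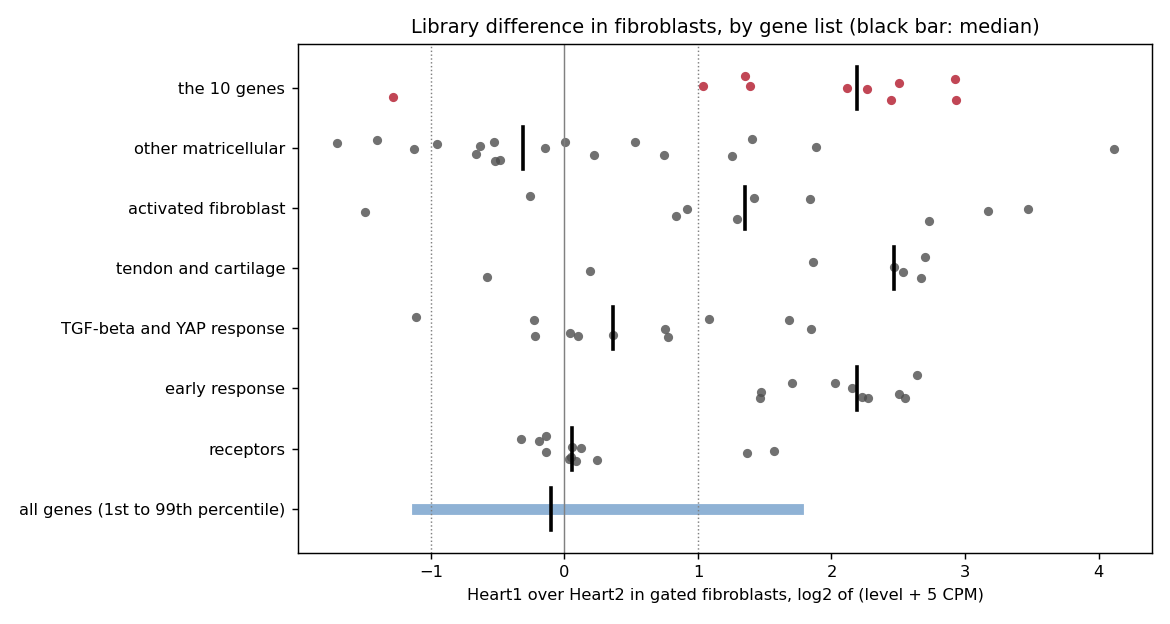
Log2 difference of Heart1 over Heart2 in gated fibroblasts (horizontal axis, levels plus 5 CPM) for the 10 genes and 6 other gene lists, 1 point per gene, black bars at the median. The blue bar spans the 1st to 99th percentile of all genes (-1.11 to 1.75), and 9 of the 10 genes lie beyond 1 while Thbs2 lies at -1.29.

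Other matricellular genes were split between the directions. Of the 18 above the filter, 4 were called higher in Heart1 fibroblasts, 3 lower and 11 neither, with a median of -0.31. Sparcl1, a relative of Sparc, had 1517 CPM in Heart1 and 2352 in Heart2. Smoc2, a calcium-binding matrix protein, had 608 and 1618, a difference past 2-fold. Fstl1, a secreted follistatin-like protein, had 1104 and 766. Fbln1, an elastic-fibre protein, had 761 and 1097. Named after their values were seen, the 4 higher genes were Tnc, Cyr61, Wisp1 and Wisp2, the 3 lower were Nov, Smoc2 and Efemp1, and tenascin-C (Tnc) had 114.7 in Heart1 and 1.92 in Heart2. Against macrophages, 15 of the 17 above the filter were higher in fibroblasts, and Tgfbi, named after its values were seen, was lower.

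Of the 10 activated fibroblast genes, 6 were called higher in Heart1 fibroblasts, 1 lower and 3 neither, with a median of 1.35. Ltbp2 had 327 CPM in Heart1 and 31.8 in Heart2. Meox1, a transcription factor of activated cardiac fibroblasts, had 524 and 193. The collagen genes Col8a1 (574 and 319) and Col5a1 (236 and 283) stayed under 2-fold. Of the 7 tendon and cartilage genes above the filter, 5 were called higher and 0 lower, among them Prg4 (390 and 57.1) and the collagen-binding proteoglycan Fmod (125 and 18.5). Sox9, a cartilage transcription factor, had 148 and 129. Of the 11 TGF-beta and YAP response genes, 3 were called higher, 1 lower and 7 neither, with a median of 0.37. Pmepa1, a feedback inhibitor of TGF-beta signalling, had 1188 in Heart1 and 558 in Heart2, while Amotl1, a YAP-binding protein, had 97.4 and 94.5.

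Receptors of the 10 proteins were present in both classes. Of the 14 above the filter, 3 were higher in fibroblasts, 4 higher in macrophages and 7 neither. Lrp1, the endocytic receptor that clears thrombospondins, had 919 CPM in Heart1 fibroblasts and 1013 in Heart2 fibroblasts, against 444 and 286 in the macrophages. Cd47 had 485 and 554, against 303 and 412, and integrin beta 1 (Itgb1) had 378 and 364, against 351.5 and 281. The scavenger receptors Cd36, which binds thrombospondin type 1 repeats, and Stab1, which takes up Sparc, were macrophage genes. Stab1 had 2.62 and 0.719 CPM in fibroblasts, against 738 and 1050 in macrophages, and Cd36 had 0.749 and 0.12, against 225 and 336.

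Fibroblast subsets were set apart by 5 pairs of marker genes chosen after the data were seen, and their cells may overlap. No cell of these 5 pairs held a Spp1 UMI, a gene found in only 17 of 203 Heart1 and 6 of 934 Heart2 fibroblasts. Thbs4 was found in 28 and 16 fibroblasts in all, so 0 UMIs of either gene in a small subset says little. The 18 Heart1 and 202 Heart2 fibroblasts with both Hsd11b1 and Ccl11 held 0 and 1 Thbs4 UMIs. Thbs2 stood at 201 and 315 CPM there. Among the 89 Heart2 fibroblasts with both Pi16 and Dpp4, markers of an adventitial fibroblast state, Fn1 was in 51.7% of cells at 219.8 CPM, against 13.9% of all Heart2 fibroblasts. The 11 Heart1 fibroblasts with both Wif1 and Coch, a pair found in no Heart2 fibroblast, all held Postn. Its level there was 708 CPM, against 1966 in all Heart1 fibroblasts. These 11 cells held 0 UMIs of Thbs4, Spp1 and Cilp, genes found in 13.8%, 8.37% and 42.4% of all Heart1 fibroblasts. Without the cells of all 5 pairs, 9 of the 10 genes were still called higher in Heart1 and 1 lower.

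Cells outside both gates held few of these UMIs for most genes. Postn in Heart2 was an exception, with 268 UMIs (11.2% of the library's total) in the 27 ungated cells. Of these, 260 lay in 5 cells that had at least 4 fibroblast markers but also more than 1 macrophage marker. A single cell held 253 of them. Fn1 and Thbs1 in Heart1 were also exceptions. The 25 ungated Heart1 cells held 115 Fn1 UMIs (12.6%), with 74 in 1 cell, and 97 Thbs1 UMIs (10.96%), with 80 in 1 cell. In Heart1, 6 ungated cells with at least 3 of 5 endothelial markers held 207 Sparc UMIs and 115 Fn1 UMIs. In Heart2, 9 such cells held 215 Sparc UMIs and 3 Fn1 UMIs.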

How the data were processed

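Heart cells sorted for mCherry were profiled with a droplet 3′ kit in 2 samples of 1 group. Per the submitters' processing notes, reads were handled with Cell Ranger 3.0.2 on mm10. How values were normalized, and which cells and genes were kept, is not stated in these sources. The deposited values are natural log values: a cell's UMIs were scaled to a sum of 10000 and 1 was added before the log, as the values themselves show, and 0 columns belonged to no sample. UMIs were recovered as whole multiples of each cell's lowest value (100% within 1e-06), so depth is known: 3304045 UMIs in Heart1 and 10632723 in Heart2. The 10 genes, the gene lists and the gates were chosen with earlier results of these data known.

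Levels (CPM) were summed recovered UMIs scaled to 1000000 UMIs of a class, with exact Poisson intervals, and shares had Clopper-Pearson intervals; a share at 3000 UMIs is the average over all thinnings of a cell, computed exactly. Differences were log2 of levels plus 5 CPM, called at 2-fold among genes with a mean of at least 10. With 1 group, no test was run. All 10 genes were named, together with the 4 highest genes of each list in fibroblasts, its 2 largest differences between the classes, and the 3 genes most correlated with Thbs4, Comp, Postn, Spp1, Cilp and Ctgf; the text does not name all of them. Scrublet (in scanpy 1.11.5) marked 4 cells (0.281%) as doublets, under the share at which such a caller can be taken to have worked, so doublets were not removed in the main values. The calculations (Python 3.11.15, numpy 2.4.6, scipy 1.17.1) were checked on simulated data. Alternatives covered the gates, doublets, pseudocount, averaging over cells, the highest cells, the filter, thinning and each library alone.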

Additional observations from a re-analysis of the deposited data

Results flagged for a closer look

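Spp1 was the gene of the 10 whose difference between fibroblasts and macrophages had opposite signs in the 2 libraries. Its log2 difference of fibroblasts over macrophages was -0.27 in Heart1 and 2.14 in Heart2. The difference between these values was not tested. In Heart1, 82.2% of the macrophage UMIs lay in 1 cell, and in Heart2, 94.2% of the fibroblast UMIs lay in 1 cell. With no marker of the other class allowed in a gated cell, the values were -0.57 and -0.22, and with the highest 1% of cells left out they were 0.74 and -0.61.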

How the results depend on the processing

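No paired analysis was possible because there is 1 group. Of the 10 genes, 8 to 10 were called higher in fibroblasts than in macrophages under every alternative run, and 0 lower; with Heart1 alone 9 and with Heart2 alone 10 were called. The count was 8 with the highest 1% of cells left out, where Thbs4 was not called. In Heart1 over Heart2 fibroblasts, 8 or 9 were called higher and 1 lower under the gates, doublets, pseudocounts, averaging over cells and the highest cells, and 6 higher without cells holding a Thbs4 UMI, an alternative chosen after the data were seen, as were those on Cdkn2a and on marker pairs. The Sparc value fell below 2-fold, to 0.82 averaged over cells and just short of it with no marker of the other class allowed. Pairs found together at least 1.5 times the expected number of times came to 11 to 13 over both libraries, 15 in Heart1 alone and 22 in Heart2 alone; each alone sets 1 condition fewer. For single genes, 40 of 100 alternative values of Heart1 over Heart2 moved by more than counting error. Of 90 values of fibroblasts over macrophages, 12 moved by more than the spread between libraries. None changed sign among those called, in either set. The 90 include the values of each library alone, which by construction cannot exceed that spread or change sign for a called gene. Those values add no check. With the highest 1% of cells left out in each library, the log2 difference of Thbs4 in Heart1 over Heart2 was 5.76, against 2.12 with all cells. Those cells were ranked by the gene itself, and only 28 Heart1 and 16 Heart2 fibroblasts held Thbs4. The same 1% takes out a larger part of the Thbs4 cells in Heart2, so nothing is read from the rise. With no marker of the other class allowed, the log2 difference of Thbs4 was 3.49, and that of Spp1 was 4.96, against 2.44. The stricter gate leaves out the Heart2 cell that held 94.2% of Spp1 UMIs and had 1 macrophage marker. Without a filter on low levels, 11.4% of all genes were called higher in fibroblasts and 1.94% higher in Heart1 fibroblasts. Thinning to 5000 UMIs left out 6 Heart1 and 81 Heart2 fibroblasts. In macrophages, by counting error alone, 0 UMIs allow a level of up to 8.64 CPM in Heart1 and 1.55 in Heart2. Likewise, 0 of 37 and 0 of 197 cells allow a share of up to 8.11% and 1.52%. That share limits cells with a UMI, not cells that express the gene.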
